A study of Mus musculus with 6 samples.

Results

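The costimulatory genes described here are 10 receptors and ligands of the CD28 family and of the tumour necrosis factor (TNF) and TNF receptor families, chosen by gene symbol: Cd28, Icos, Cd27, Tnfrsf4, Tnfrsf9, Tnfrsf18, Tnfrsf1b, Cd40lg, Tnfsf8 and Tnfsf14. They are 10 of the 55487 genes listed in each library's table, and each symbol matched a single gene. Gene expression was measured by RNA-seq of total RNA from CD8+ T cells of C57BL/6 mice. One group of 3 libraries came from cells cultured with 5 mM itaconate, an acid released by activated macrophages, and the other group of 3 from cells cultured with NaCl as the control, all for 48 h. The only comparison is itaconate against NaCl, and it asks which of these genes differ between the cultures. The labels do not say how the cells were activated, nor whether the 3 libraries of a group stem from different mice or cultures. The p-values therefore reflect only how far these libraries scatter, and that scatter may be technical.

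A T cell that recognises antigen needs a further signal to expand and survive, and costimulatory receptors deliver it. CD28 binds CD80 and CD86 on antigen-presenting cells and acts through phosphatidylinositol 3-kinase and the kinases of the antigen receptor, while its relative ICOS appears after activation. Receptors of the TNF receptor family, such as CD27, OX40 and GITR, recruit TRAF adaptor proteins that switch on NF-kappaB, and they sustain CD8 T cells after priming. Their partners are mostly trimeric ligands of the TNF family, some of which T cells carry themselves.

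Of the 10 genes, all of which passed the filter on low counts, 2 fell and 1 rose with itaconate at an adjusted p under 0.05 (edgeR's quasi-likelihood test with Benjamini-Hochberg adjustment over 12350 genes), and 7 did not pass. Tnfsf8, which encodes CD30 ligand, fell to 0.537 of its control level, the largest difference among the 10. Cd28 fell to 0.843 of its control level, and Tnfrsf1b, the TNF receptor TNFR2, rose 1.18-fold. Among all tested genes, 12% were called in either direction, 5.36% lower and 6.68% higher. The median log2 fold change (itaconate over control) was -0.16 over the 10 genes and 0.0059 over all tested genes. Normalised counts left a gap between the groups for 5 of the 10 genes, Cd28, Icos, Cd27, Tnfrsf1b and Tnfsf8, where 31.2% of the whole tested table showed such a gap.

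**Figure D1:**
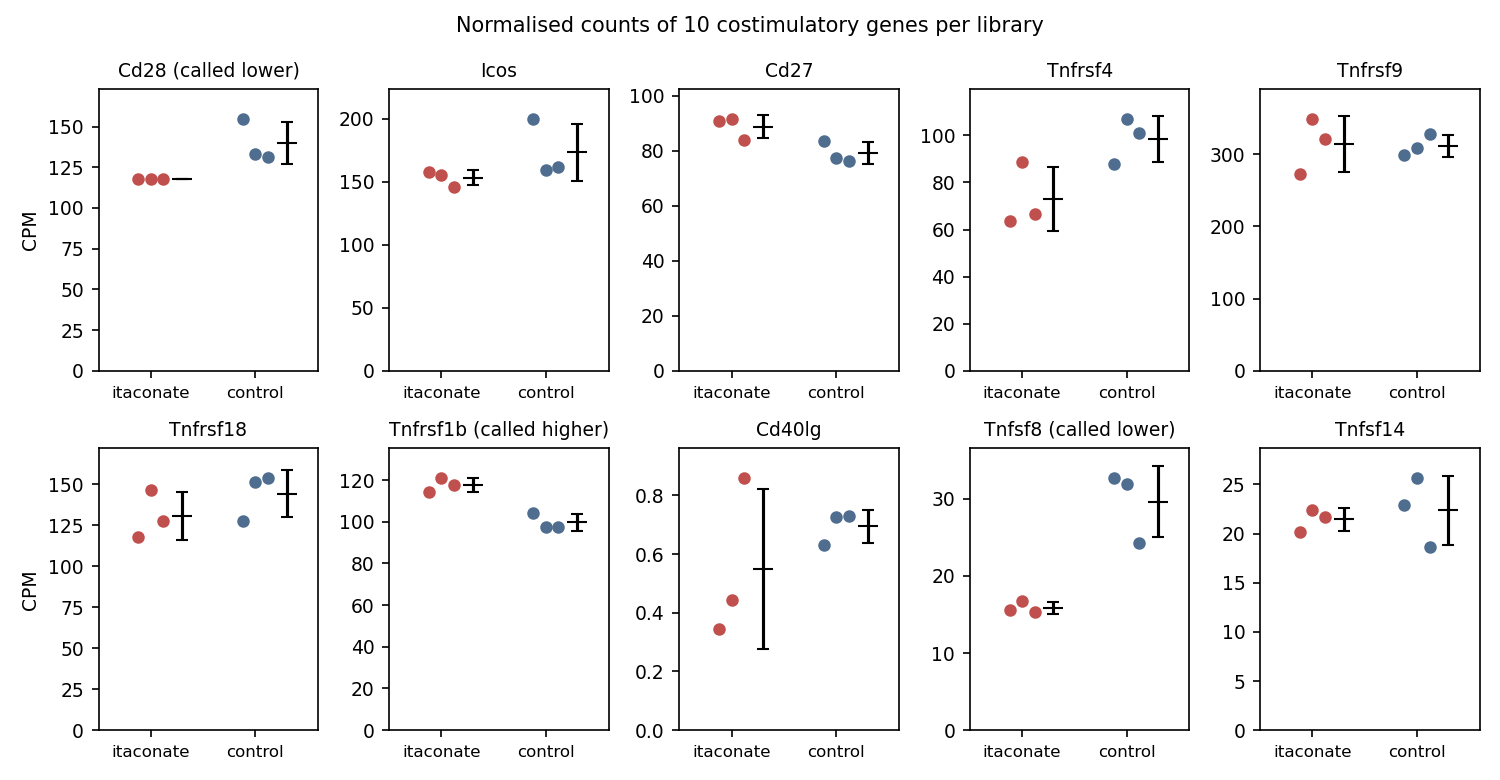
Normalised counts (CPM, vertical axes from 0, a scale of its own in each panel) of the 10 genes in each library, with 3 itaconate libraries on the left and 3 control libraries on the right of each panel. Points are libraries, and the bar beside them is the mean with its SD. The 3 itaconate libraries of Tnfsf8 lie between 15.4 and 16.8 CPM, below all 3 control libraries.

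Total expected counts lay between 18280217 and 23609543 in itaconate libraries and between 20469874 and 31643408 in control libraries, and the 10 genes together took 0.0970% to 0.109% of counts in itaconate libraries and 0.109% to 0.113% in control libraries. All 8 marker genes checked for CD8 T cells were expressed. Only Cd8a and Cd8b1 among them encode CD8, and the others are shared by T cells in general. Cd8a was at 645 ± 14 CPM with itaconate and 497 ± 27 CPM in control (mean ± SD, n = 3 each), against 3.72 ± 1.9 and 3.22 ± 1.3 CPM for Cd4. The markers were not level between the groups: Cd8a (log2 fold change 0.38 ± 0.049, edgeR adjusted p 0.000297) and Thy1 (0.28 ± 0.044, 0.000999) were called higher and Cd5 lower (-0.37 ± 0.069, 0.00446), and 5 did not pass. Their sums were 3137 to 3169 CPM with itaconate and 2679 to 2790 CPM in control, and their part in the results below was not tested. Thy1 was the largest term of the sums, at 1413 ± 9.0 CPM with itaconate and 1165 ± 35 CPM in control. Cd8b1 overlapped between the groups, at 312 ± 9.7 CPM with itaconate and 289 ± 23 CPM in control. Of 12350 genes, 1487 changed, 825 upward and 662 downward. With limma on log2(TPM + 1) 340 changed, 133 upward and 207 downward. CPM here is the rounded expected count scaled to library size with edgeR's TMM factors, and TPM is the authors' level per transcript length. RNA was taken from whole cultures, so fewer cells that express a gene and less of its RNA per cell cannot be told apart for any result below.

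The genes of the CD28 family lie near each other. In the mouse genome GRCm38 (GENCODE M21, by the gene identifiers in the files), Cd28 (ENSMUSG00000026012) is on chromosome 1 at 60716800 to 60773359 and Icos (ENSMUSG00000026009) at 60977927 to 61000320. The only protein-coding gene between them is Ctla4, which encodes the inhibitory receptor that competes with CD28 for CD80 and CD86. Icos overlaps the annotated gene Gm37039 and Ctla4 overlaps Rpl18-ps1, in each case on the same strand. Levels of Gm37039 and Rpl18-ps1 are not given here. The coding stretch around the ligand-contacting loop is shown for Cd28, Ctla4 and Icos because all 3 hold a run of 3 proline codons there. ICOS has its own ligand. Each stretch is 45 bases of the coding strand from GENCODE M21 transcripts, 5′ to 3′, and the capitals mark a run of 3 proline codons, which begins at codon 120 in Cd28, 136 in Ctla4 and 116 in Icos.
Cd28: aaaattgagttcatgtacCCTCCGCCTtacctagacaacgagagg
Ctla4: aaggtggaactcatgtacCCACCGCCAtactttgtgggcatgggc
Icos: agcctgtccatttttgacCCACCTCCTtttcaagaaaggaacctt
The 2 codons before the run and the codon after it were identical in Cd28 and Ctla4 and not in Icos.

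Cd28 was lower in all 3 itaconate libraries, at 117.9, 117.6 and 118.0 CPM, against 154.5, 133.3 and 131.5 CPM in the control libraries. The itaconate values were nearly equal, the lowest control library lay above all of them, and control replicate 1 was the highest. The log2 fold change was -0.25 ± 0.061 (SE), with a 95% interval of -0.38 to -0.12 and an edgeR adjusted p of 0.0169. The call was lost without itaconate replicate 2 (adjusted p 0.0629) or 3 (0.0650), where the log2 fold change was -0.25 in both, and with limma on log2(TPM + 1) (0.109) or with effective length modelled (0.0649). Over the fits without 1 library the log2 fold change ran from -0.30 to -0.17. The difference kept its sign in 15 of 15 alternative analyses.

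Icos, the inducible relative of CD28 that binds ICOS ligand, had 158.0, 155.5 and 146.4 CPM with itaconate and 199.8, 159.3 and 161.9 CPM in control. The groups did not overlap, but the lowest control library was close to the highest itaconate library and control replicate 1 stood above the other control libraries. The gene did not pass (log2 fold change -0.18 ± 0.082, interval -0.37 to 0.0038, adjusted p 0.198), and without control replicate 1 the log2 fold change was -0.070. With no filter on low counts it was called lower, at the same -0.18 (adjusted p 0.0130). Ctla4, which lies between them on the chromosome, was called lower, at 313 ± 27 CPM with itaconate and 425 ± 36 CPM in control (SD, n = 3 each; log2 fold change -0.44 ± 0.072, edgeR adjusted p 0.00295).

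Of the 5 genes for TNF receptor family members, 1 was called higher and 4 did not pass. Tnfrsf1b, whose product TNFR2 binds TNF and lymphotoxin-alpha and supports T cell survival, had 114.3, 120.8 and 117.7 CPM with itaconate and 104.1, 97.6 and 97.3 CPM in control. All 3 itaconate libraries lay above all control libraries. The log2 fold change was 0.24 ± 0.051 (interval 0.13 to 0.35, edgeR adjusted p 0.00814). Leaving out control replicate 2 ended the call (adjusted p 0.0678), as did limma on log2(TPM + 1) (0.181), and the value was above 0 in all 15 alternative analyses. Helper and regulatory T cells also carry TNFR2, and their 5 markers summed to 57.2 to 65.5 CPM with itaconate and 37.6 to 42.1 CPM in control. Of these markers, Foxp3 and Lrrc32 were called higher, and Cd4, Zbtb7b and Ikzf2 did not pass. Which cells held the Foxp3 and Lrrc32 RNA cannot be told from whole cultures. The part of helper and regulatory T cells in the Tnfrsf1b value was not tested. Tnfrsf1b (ENSMUSG00000028599) is on chromosome 4 at 145213463 to 145246870, on the minus strand, and overlaps no other annotated gene.

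The 250 bases upstream of the Tnfrsf1b start site are shown, chr4:145246871-145247120, minus strand, GRCm38.p6, from RefSeq, 5′ to 3′. Capitals mark the GC boxes (GGGCGG, searched on both strands).
Tnfrsf1b: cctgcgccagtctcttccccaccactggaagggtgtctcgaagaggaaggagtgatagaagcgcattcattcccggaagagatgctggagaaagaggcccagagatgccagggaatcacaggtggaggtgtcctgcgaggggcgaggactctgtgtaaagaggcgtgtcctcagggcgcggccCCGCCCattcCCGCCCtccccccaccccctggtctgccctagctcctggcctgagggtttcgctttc
The window held 2 GC boxes and no match to the NF-kappaB consensus, to the AP-1 motif TGANTCA or to the cAMP response element TGACGTCA. Of 32851 upstream windows of the same length, 32.7% held a GC box, 3.9% the NF-kappaB consensus, 6.75% the AP-1 motif and 1.55% the cAMP response element. Windows were at hand for 7 of the 10 genes (Cd28, Icos and Cd40lg had none), and the NF-kappaB consensus was found only in the second of the 2 windows of Tnfrsf9, with 2 matches. These letters describe the windows and were not tested against the expression values.

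Cd27, a receptor of naive and memory T cells that binds CD70, had 90.9, 91.4 and 84.0 CPM with itaconate and 83.6, 77.5 and 76.4 CPM in control. The groups were separated by less than the spread within either, and the gene did not pass (log2 fold change 0.16 ± 0.058, interval 0.040 to 0.29, adjusted p 0.0810). In TPM the groups overlapped, at 96.1 to 102 with itaconate and 84.6 to 101 in control. Without control replicate 1 the adjusted p was 0.0495. Cd27 (ENSMUSG00000030336, chromosome 6 at 125232622 to 125237010, minus strand) shares its position with Vamp1 on the opposite strand, which was at 14.6 ± 1.0 CPM with itaconate and 12.7 ± 2.2 CPM in control. The strand setting of the counting is not given in the sources used here, so reads from the overlap cannot be told apart.

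Tnfrsf4 (OX40) and Tnfrsf18 (GITR), which activated and regulatory T cells display, are neighbours on chromosome 4, with 9551 bases and no protein-coding gene between them. Tnfrsf4 (ENSMUSG00000029075) spans 156013843 to 156016612 and Tnfrsf18 (ENSMUSG00000041954) 156026164 to 156028895, both on the plus strand, and with Tnfrsf9, Tnfrsf1b and Tnfsf8 they make 5 of the 10 genes on that chromosome. Tnfrsf4 had 63.6, 88.6 and 66.7 CPM with itaconate and 87.9, 106.8 and 101.0 CPM in control. Itaconate replicate 2 lay just above control replicate 1, so the groups overlapped, while in TPM they did not (103 to 135 with itaconate, 150 to 175 in control). The gene had the second-largest fold difference of the 10 with a wide interval, a log2 fold change of -0.44 ± 0.14 (interval -0.79 to -0.084), and it did not pass (edgeR adjusted p 0.116). It was called lower without itaconate replicate 2, at a log2 fold change of -0.60 (adjusted p 0.00136), with DESeq2 (0.000818) and with no filter on low counts (0.00520).

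Tnfrsf18 had 117.7, 146.3 and 127.7 CPM with itaconate and 127.8, 151.3 and 153.5 CPM in control. The groups overlapped and the gene did not pass (log2 fold change -0.14 ± 0.093, interval -0.36 to 0.069, adjusted p 0.379). The log2 fold change was -0.075 without itaconate replicate 1, -0.23 without itaconate replicate 2 and -0.23 without control replicate 1. It overlaps the antisense gene Gm16008, which was at 1.08 ± 0.15 CPM with itaconate and 0.759 ± 0.36 CPM in control. Its expected counts were up to 0.38 away from a whole number, as happens where RSEM divides reads that match more than 1 gene. Within each library the ratio of Tnfrsf4 to Tnfrsf18 (CPM over CPM) was 0.540, 0.605 and 0.522 with itaconate and 0.688, 0.706 and 0.658 in control, without overlap. The pair was chosen after the values were seen, and the ratio was not tested.

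Tnfrsf9 (ENSMUSG00000028965, chromosome 4 at 150914562 to 150946102, plus strand) encodes 4-1BB, a receptor that antigen signals induce and that promotes expansion of CD8 T cells. It was the most abundant of the 10 and showed no detectable difference, with 271.9, 348.3 and 320.3 CPM with itaconate and 298.3, 308.7 and 327.4 CPM in control. The itaconate libraries were both the lowest and the highest. The log2 fold change was 0.0090 ± 0.082 (interval -0.18 to 0.20, adjusted p 0.964), which leaves room for a fold between 0.884 and 1.15. Its sign turned in 8 of 15 alternative analyses, with -0.13 from limma on log2(TPM + 1) and -0.065 with effective length modelled. The authors' average transcript length of Tnfrsf9, which moves with the estimated mix of isoforms, was 1552, 1567 and 1497 bases with itaconate and 1373, 1483 and 1585 bases in control, and was shortest in control replicate 1. Tnfrsf9 overlaps Camta1 on the opposite strand, at 6.67 ± 0.90 CPM with itaconate and 6.87 ± 0.95 CPM in control.

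Among the 3 ligands of the TNF family, Tnfsf8 fell and Tnfsf14 and Cd40lg did not pass. Tnfsf8 encodes CD30 ligand, which activated T cells carry and which binds the receptor CD30. It had 15.5, 16.8 and 15.4 CPM with itaconate and 32.6, 31.9 and 24.3 CPM in control, from 302 to 358 counts per itaconate library and 661 to 879 per control library. The itaconate libraries lay close together and far below the lowest control library, replicate 3. The log2 fold change was -0.90 ± 0.11 (interval -1.14 to -0.66, edgeR adjusted p 0.000236), and it ranked number 316 among 12350 tested genes by absolute value. The gene was called lower in all 15 alternative analyses, with log2 fold changes from -1.03 to -0.82. Tnfsf8 (ENSMUSG00000028362) is on chromosome 4 at 63831308 to 63861347, on the minus strand, with no overlapping gene, and its length in the authors' tables was 3807 bases in all 6 libraries.

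Tnfsf14 encodes LIGHT, a ligand of HVEM and of the lymphotoxin-beta receptor that costimulates T cells. Its gene (ENSMUSG00000005824) is on chromosome 17 at 57189492 to 57194177, minus strand. It had 20.2, 22.4 and 21.7 CPM with itaconate and 22.9, 25.6 and 18.6 CPM in control. The itaconate libraries fell inside the control range, and the log2 fold change was -0.055 ± 0.11 (interval -0.29 to 0.18, adjusted p 0.80). Cd40lg (ENSMUSG00000031132, chromosome X at 57212143 to 57224042, plus strand), the CD40 ligand that mainly helper T cells show to B cells and dendritic cells, was close to the lower limit of the filter, with 7, 8 and 20 counts with itaconate and 17, 15 and 23 counts in control. That is 0.346, 0.444 and 0.858 CPM with itaconate and 0.631, 0.725 and 0.730 CPM in control, and itaconate replicate 3 was the highest of all 6. With an interval of -1.23 to 0.61 on the log2 scale (adjusted p 0.708), and values from -0.81 without itaconate replicate 3 to -0.068 without itaconate replicate 1, a difference of up to about that size was not detectable at this depth.

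**Figure D2:**
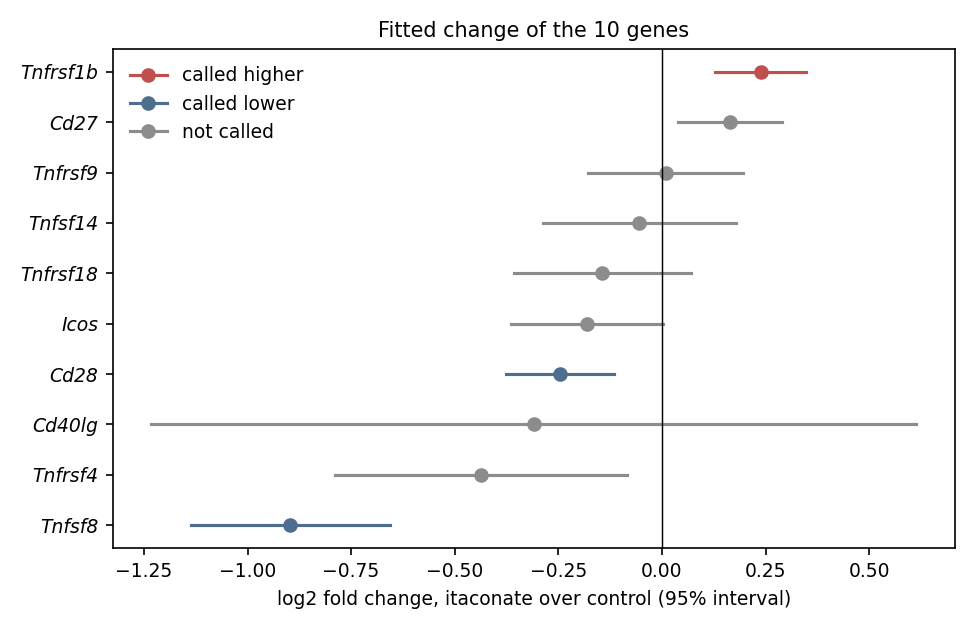
Fitted log2 fold change of itaconate over control for each of the 10 genes (horizontal axis), with its 95% interval from edgeR's quasi-likelihood fit (n = 3 libraries each). Tnfrsf1b at 0.24 was called higher, Cd28 at -0.25 and Tnfsf8 at -0.90 were called lower, and the interval of Cd40lg is the widest.

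Levels of different genes were compared in TPM, which is per length. The order from the highest was Tnfrsf9, Tnfrsf18, Tnfrsf4, Cd27 and Icos in both groups, and Tnfsf14, Tnfsf8 and Cd40lg closed it in both. Tnfrsf9 was at 288 ± 28 TPM with itaconate and 315 ± 23 TPM in control, and Cd40lg at 0.647 ± 0.32 and 0.860 ± 0.046 TPM with itaconate and in control (SD, n = 3 each). Library ranges of neighbours in this order were apart in both groups, except that Cd27 and Icos overlapped in control, at 84.6 to 101 TPM for Cd27 and 66.6 to 84.9 TPM for Icos.

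Cd28 and Tnfrsf1b exchanged places in the order. With itaconate Tnfrsf1b was at 39.9 ± 0.86 TPM and Cd28 at 34.4 ± 1.0 TPM, whereas in control Tnfrsf1b was at 35.1 ± 1.8 TPM and Cd28 at 42.8 ± 4.7 TPM (SD, n = 3 each). The ratio of Tnfrsf1b to Cd28 within a library (TPM over TPM) was 1.11, 1.17 and 1.199 with itaconate and 0.771, 0.831 and 0.867 in control. Every itaconate library held more Tnfrsf1b than Cd28 and every control library held less. Since both genes were called, in opposite directions, the ratio is a description of the same difference and not a further test.

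**Figure D3:**
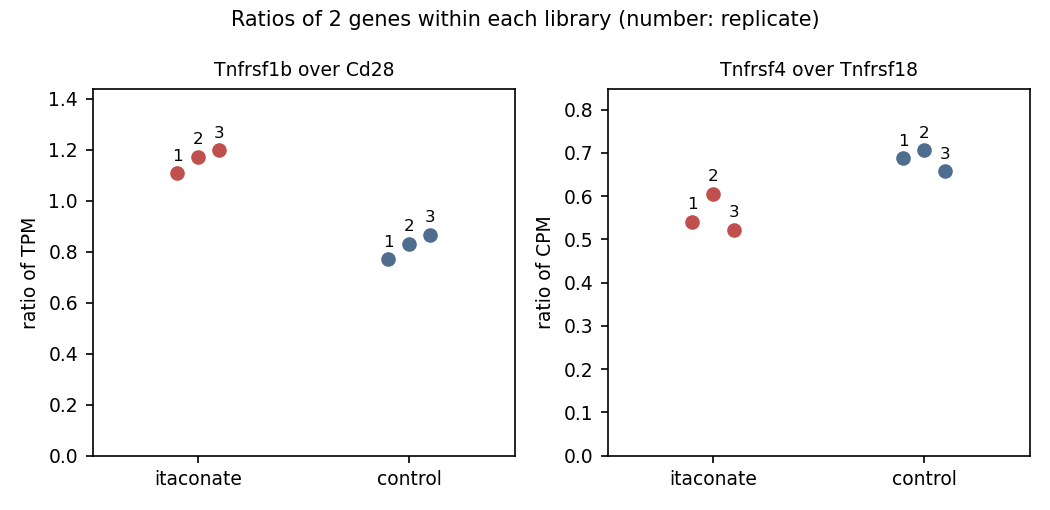
Ratios of a pair of genes within each library, with Tnfrsf1b over Cd28 in TPM on the left and Tnfrsf4 over Tnfrsf18 in CPM on the right (vertical axes from 0, 3 itaconate libraries left of 3 control libraries, numbers are replicates). The first ratio lies between 1.11 and 1.199 with itaconate and between 0.771 and 0.867 in control, and the second between 0.522 and 0.605 with itaconate and between 0.658 and 0.706 in control.

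The partners of these 10 proteins were partly measured in the same cells. Of 13 genes for their ligands and receptors, 10 were tested, 1 rose and 9 did not pass, which is 10% called where 12% of all tested genes were. The riser was Lta, which encodes lymphotoxin-alpha, a ligand of TNFR2, at 335 ± 3.6 CPM with itaconate and 292 ± 14 CPM in control (SD, n = 3 each; log2 fold change 0.20 ± 0.047, edgeR adjusted p 0.0138). Its call was lost without itaconate replicate 3 (adjusted p 0.0503) or control replicate 2 (0.0751), and with limma on log2(TPM + 1) (0.13, adjusted p 0.180). Tnf, the other ligand of TNFR2, was at 37.3 ± 4.5 CPM with itaconate and 42.4 ± 6.0 CPM in control and did not pass (adjusted p 0.366). Tnfrsf8, the receptor CD30 that binds the product of Tnfsf8, was at 21.9 ± 4.3 CPM with itaconate and 25.7 ± 5.1 CPM in control, with overlap (adjusted p 0.518). The CD28 ligand genes were low, Cd80 at 5.78 ± 0.33 CPM with itaconate and 6.99 ± 1.1 CPM in control (adjusted p 0.260), and Cd86 at 2.08 ± 1.1 and 2.61 ± 0.71 CPM with itaconate and in control (adjusted p 0.706).

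Other receptors and ligands of the same families moved both ways. Of 21 other receptors, 15 were tested, and 1 rose, 3 fell and 11 did not pass (26.7% called). Btla, an inhibitory receptor that binds HVEM, had the smallest adjusted p, at 35.1 ± 1.9 CPM with itaconate and 49.6 ± 4.5 CPM in control (log2 fold change -0.49 ± 0.076, edgeR adjusted p 0.000941), and Ctla4 followed. Fas, the death receptor, fell too (-0.40 ± 0.12, adjusted p 0.0391), but its call ended when any single library except control replicate 3 was left out (0.0691 to 0.147). The riser was Tnfrsf13b, the receptor TACI for the B cell survival factors BAFF and APRIL, at 25.9 ± 2.2 CPM with itaconate and 18.5 ± 2.4 CPM in control (edgeR adjusted p 0.00734, and 0.0535 without control replicate 2). Tnfrsf13b also lost its call with effective length modelled (0.0983) and with limma on log2(TPM + 1) (0.167), and its groups overlapped in TPM. Of 9 other ligands, 4 were tested, and 2 passed. Fasl rose (0.63 ± 0.16, adjusted p 0.0175) and Ltb, lymphotoxin-beta, fell (-0.20 ± 0.050, adjusted p 0.0177). The Fasl difference depended on transcript length, at 0.29 with effective length modelled (adjusted p 0.660) and 0.26 with limma on log2(TPM + 1) (0.598), and in TPM control replicate 3 was the highest of all 6 libraries. Fasl also lost its call without itaconate replicate 2 or 3 or control replicate 1 or 2 (0.0571 to 0.0900), and Ltb without itaconate replicate 1 (0.0747) or control replicate 2 (0.0807).

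The TRAF adaptors and NF-kappaB regulators below the TNF receptors came next. Of 21 tested, 2 rose, 1 fell and 18 did not pass (14.3% called), with a median log2 fold change of 0.020. Tnfaip3, the ubiquitin-editing enzyme A20 that limits NF-kappaB and is itself induced by it, fell to 36.1 ± 1.6 CPM with itaconate, against 49.2 ± 2.2 CPM in control (SD, n = 3 each; log2 fold change -0.45 ± 0.066, edgeR adjusted p 0.000642), and kept its call without any 1 library. Tradd, an adaptor of the TNF receptor TNFR1, rose (0.36 ± 0.085, adjusted p 0.0134, and 0.0714 without itaconate replicate 2). Traf4 rose (0.22 ± 0.054, adjusted p 0.0180), a call lost without itaconate replicate 2 (0.0897), control replicate 1 (0.0580) or control replicate 2 (0.0980).

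Among 22 tested genes that act close to CD28 and the antigen receptor, 4 rose, 1 fell and 17 did not pass (22.7% called), with a median of 0.018. Rac2, a GTPase of the T cell cytoskeleton, rose to 551 ± 13 CPM with itaconate, against 459 ± 20 CPM in control (0.26 ± 0.047, edgeR adjusted p 0.00247). Malt1, a protease that carries antigen receptor and CD28 signals to NF-kappaB, fell to 115 ± 5.1 CPM with itaconate, against 138 ± 7.9 CPM in control (adjusted p 0.00604). Rac2 and Malt1 lost their calls with effective length modelled (adjusted p 0.0586 and 0.108) and with limma on log2(TPM + 1) (0.225 and 0.160). In TPM the groups overlapped for both genes. Carmil2, a CD28 adaptor, rose (0.21 ± 0.055, adjusted p 0.0226) but kept its call only when control replicate 1 was the library left out (otherwise 0.0552 to 0.116), and was at 0.14 with limma on log2(TPM + 1) (adjusted p 0.346).

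Genes that costimulation is known to induce split as well. Of 18 tested, 1 rose, 4 fell and 13 did not pass (27.8% called), with a median of -0.033. Il2, the growth factor whose transcription CD28 amplifies, fell to 1.53 ± 0.39 CPM with itaconate, against 3.74 ± 0.56 CPM in control (log2 fold change -1.27 ± 0.25, edgeR adjusted p 0.00444). Rel, the NF-kappaB subunit c-Rel, fell to 76.7 ± 0.67 CPM with itaconate, against 93.0 ± 6.4 CPM in control (adjusted p 0.00713). The D-type cyclins went apart, with Ccnd3 called higher (0.29 ± 0.045, adjusted p 0.000975) and Ccnd2 lower (-0.22 ± 0.047, adjusted p 0.00900, and 0.0541 without control replicate 2). With limma on log2(TPM + 1) the cyclins and Rel did not pass, with Ccnd2 at -0.37 (adjusted p 0.0908), Ccnd3 at 0.21 (0.0626) and Rel at -0.32 (0.0958).

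**Figure D4:**
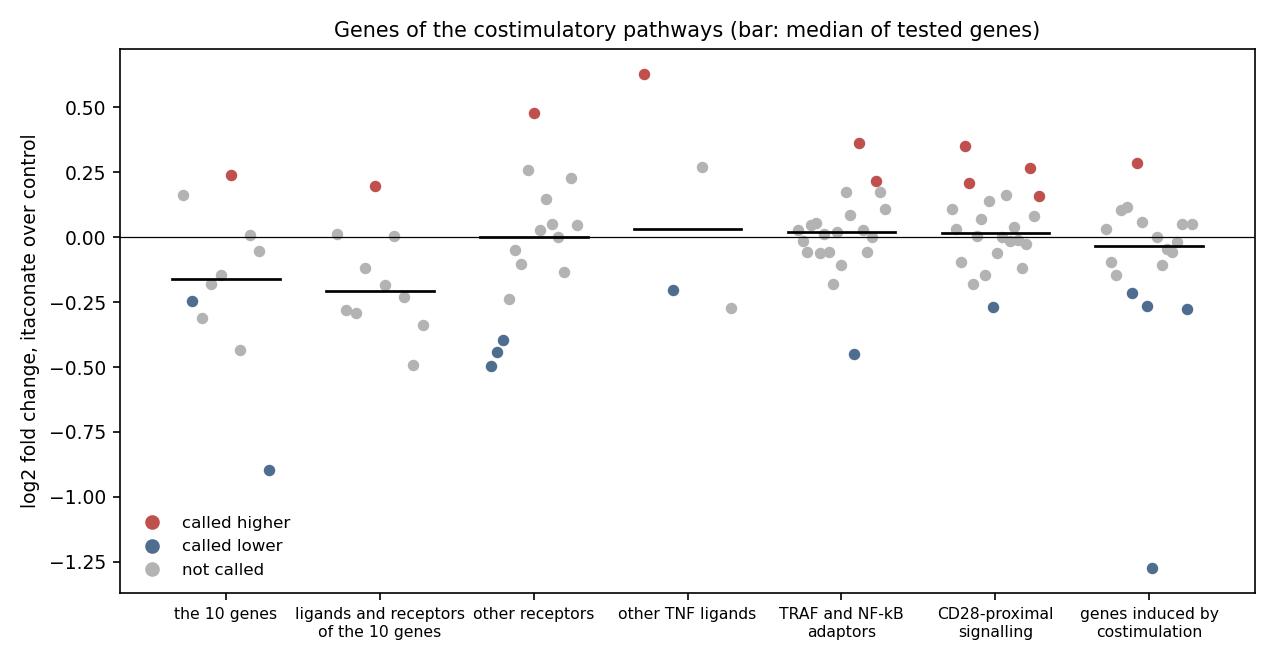
Fitted log2 fold change of itaconate over control (vertical axis) for each tested gene of the 10 genes and of 6 pathway lists, with a bar at the median of each column. Red points were called higher, blue points lower and grey points not. Most points of the adaptor and CD28-proximal lists lie close to 0, and Il2 at -1.27 is the lowest.

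Markers of other cells were summed in each library because costimulatory genes are expressed at other levels there. Of 5 markers of helper and regulatory T cells, 2 rose, Foxp3 and Lrrc32, none was at 0, and their sums, given above, did not overlap. Foxp3, the factor of regulatory T cells, was at 12.4 ± 2.3 CPM with itaconate and 1.87 ± 0.63 CPM in control (log2 fold change 2.72 ± 0.22, edgeR adjusted p 1.1e-05, and 1.55 with limma on log2(TPM + 1), adjusted p 0.0121), while Cd4 did not pass (adjusted p 0.809). Lrrc32, a surface protein that holds latent TGF-beta, was at 29.3 ± 2.8 CPM with itaconate and 23.1 ± 2.6 CPM in control, and lost its call without itaconate replicate 1 or 2 or control replicate 2 or 3 (0.106 to 0.133). Regulatory T cells are known for high Tnfrsf1b, Tnfrsf4, Tnfrsf18, Icos and Ctla4, of which Tnfrsf1b was called higher here, Ctla4 lower and the others were not called. Their part in these values was not tested either. The sums of 6 B cell markers, 10.7 to 24.2 CPM with itaconate and 13.7 to 22.5 CPM in control, and of 10 myeloid and dendritic cell markers, 7.10 to 20.98 CPM with itaconate and 7.59 to 14.5 CPM in control, overlapped, and Siglech was at 0 in all libraries. Of 6 natural killer cell markers, with sums of 292.4 to 329.6 CPM with itaconate and 263.4 to 292.3 CPM in control, Eomes, which CD8 T cells also express, was called higher and Ncr1 was at most 0.257 CPM in any library. Nearly all of these sums came from Eomes and Nkg7. Nkg7 was at 186 ± 15 CPM with itaconate and 172 ± 13 CPM in control and did not pass (adjusted p 0.298).

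**Figure D5:**
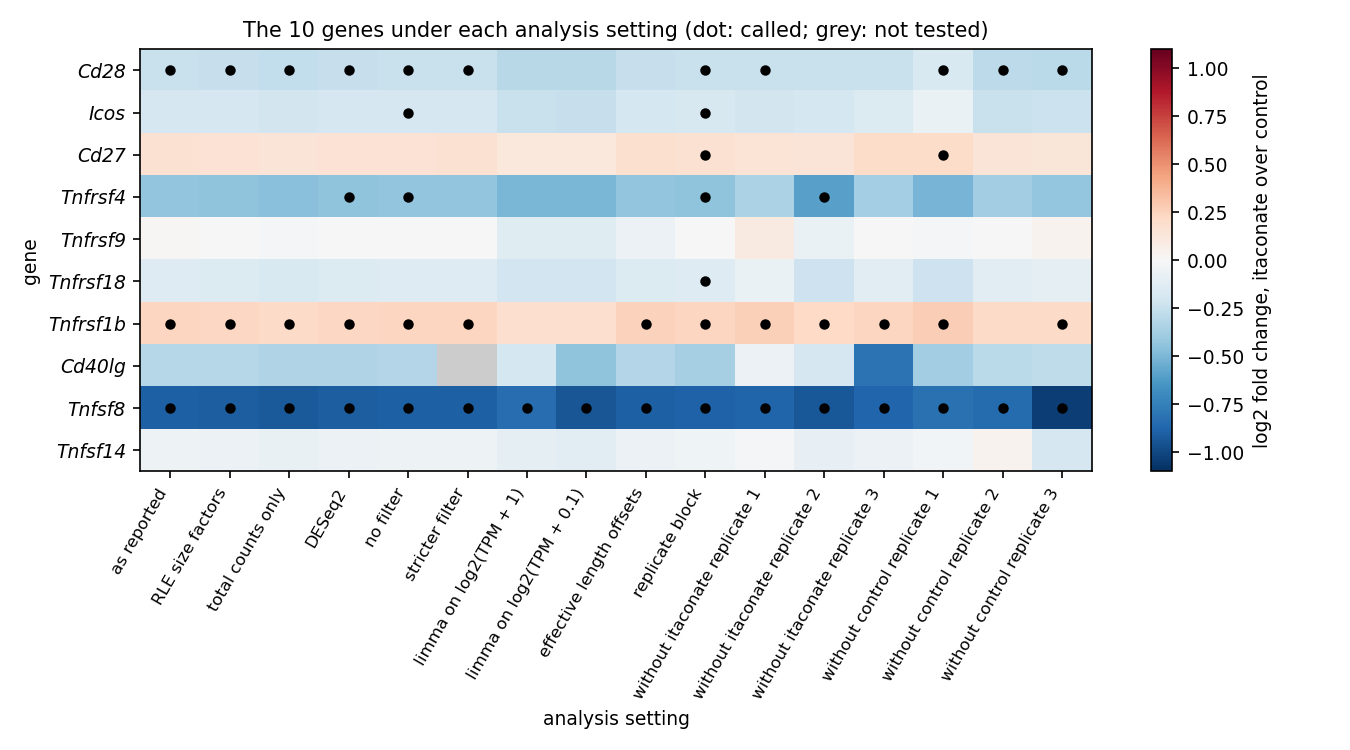
Log2 fold change of itaconate over control (colour) of the 10 genes (rows) under the reported analysis and 15 alternatives (columns). A dot marks a call at an adjusted p under 0.05, and grey marks a gene not tested. Tnfsf8 carries a dot in every column, Cd28 in 11 of 16 and Tnfrsf1b in 13 of 16.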

How the data were processed

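Per the labels, total RNA of CD8+ T cells was isolated with a column kit and made into Illumina libraries. Each library has its own deposited gene table, laid out as RSEM writes it. The expected counts that the authors deposited are estimated, unnormalised reads per gene, and were rounded to whole numbers here. The deposited TPM values are scaled by the authors for effective length and depth. The other deposited columns used, length and effective length, are in bases. Bowtie 0.12.2 and both mm8 and mm10 stand in the submitters' processing notes without a role. Annotation and strand setting were not given in the sources used here. In GENCODE M21, 99.83% of gene identifiers were found.

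All 6 libraries entered 1 fit without a block (edgeR 4.0.16, R 4.3.3, TMM factors, minimum count 10, minimum total 15, quasi-likelihood test, two-sided, robust), which was tested on simulated data. Limma 3.58.1 and DESeq2 1.42.0 gave alternatives. Intervals are 95% and come from the fit. Named genes are the 10 members and, from each of 6 pathway lists, the 3 called genes of lowest adjusted p in each direction, plus the partners of called members. A gene that the rule takes is not reported here. The marker genes named were picked after their values were seen. The members and lists were chosen with earlier results of these data known. Chi-square values per gene between replicates (4.843 to 16.85) left no pair within a group looking like 1 library deposited again. Pairs across the groups were not compared.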

Additional observations from a re-analysis of the deposited data

How the results depend on the processing

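Tnfsf8 kept its direction and call in all 15 alternatives. Cd28 was called in 10 and Tnfrsf1b in 12 of 15, with log2 fold changes from -0.31 to -0.17 and from 0.18 to 0.27. The count of called members was 5 with no filter on low counts, 1 with limma on log2(TPM + 1) and 1 with limma on log2(TPM + 0.1), and ran from 2 to 4 without 1 library. With no filter, 1993 of all 21978 genes tested were called. The count of changed genes was 340 with limma on log2(TPM + 1), 356 on log2(TPM + 0.1) and 567 with effective length offsets, and ran from 726 (without control replicate 2) to 1400 without 1 library, with 896 without itaconate replicate 2 and 835 without itaconate replicate 3. The causes were not tested. With the replicate number as a block, 2419 genes and 7 members were called, the added members being Icos, Cd27, Tnfrsf4 and Tnfrsf18 (adjusted p 0.0242, 0.0281, 2.58e-05 and 0.0370). The labels do not say whether same-numbered libraries are paired. Deviations of same-numbered libraries correlated at 0.113, 0.0305 and 0.0034 over genes, the first being the highest of all pairs across the groups. Itaconate replicate 2 correlated better with control replicate 3 (0.0664) than with control replicate 2, and these values do not settle the pairing. Alternatives for 20 called genes outside the members, from the naming rule plus Foxp3 and Lrrc32, were added after the data were seen. All 20 kept their direction in every alternative. The call was kept by 6 with limma on log2(TPM + 1), by 8 with effective length offsets and by 10 without control replicate 2. The other called markers, Cd8a, Thy1, Cd5 and Eomes, were not run through the alternatives. Tnfrsf9 and Tnfsf14, not called in any setting, changed sign in some. Depth limits Cd40lg, with 7 to 23 counts per library.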

Other observations

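Tnfrsf4, Tnfrsf18 and Tnfrsf9 varied in a like way over the itaconate libraries, and only in part over the control libraries. Relative to the mean log2 CPM of the control libraries, Tnfrsf4 was at -0.63, -0.15 and -0.56 in itaconate replicates 1, 2 and 3 and at -0.16, 0.12 and 0.040 in control replicates 1, 2 and 3. Tnfrsf18 was at -0.29, 0.025 and -0.17 with itaconate and -0.17, 0.074 and 0.095 in control, and Tnfrsf9 at -0.19, 0.16 and 0.041 with itaconate and -0.061, -0.012 and 0.073 in control. The highest control library was replicate 2 for Tnfrsf4 and replicate 3 for Tnfrsf18 and Tnfrsf9. All 3 genes were highest in replicate 2 and lowest in replicate 1 of the itaconate group, and lowest in replicate 1 of the control group. This order was not particular to them. Cd3d, from the T cell markers checked, had it too, at 132, 157 and 148 CPM with itaconate and 123, 136 and 144 CPM in control. Nkg7 also had it and Cd3e did not, and the share of all genes with this order was not counted. Cd28 and Icos had their highest value of all 6 libraries in control replicate 1, at 0.15 and 0.21 on the same scale. The library whose difference between gene length and effective length stood apart was also control replicate 1, at 258.63 bases against 229.21 to 239.05 in the others, and its part in these values was not tested.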
